A study of Mus musculus with 6 samples.

Results

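Transcripts of 8 genes for the uptake of apoptotic cells were followed in lung cells of mice given the complement component C1q: the receptor tyrosine kinases Mertk, Axl and Tyro3, the bridging molecules Gas6, Pros1 and Mfge8, and the scavenger receptors Cd36 and Msr1. They were chosen by name for this function, all 8 are among the 26890 gene symbols of the count table, and all 8 passed the filter on low counts, as did 13473 genes in all. The C1q group was 3 samples from C57BL/6 wild-type mice that had received 20 µg of C1q per mouse into the trachea, and the Saline group was 3 samples of the same strain and genotype labelled Saline, all taken at day 3. Only the treatment label sets Saline apart, because the treatment protocol given for every one of the 6 samples is that of C1q. The lungs were digested with Liberase and DNase, and the middle layer of a Percoll step gradient was kept, so each sample is a mixture of lung cells. The labels give no age and do not tie samples to animals, so the tests measure the spread between samples, which may be technical.

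Efferocytosis is the engulfment of dying cells by macrophages and other phagocytes. A dying cell exposes phosphatidylserine on its surface, and soluble bridging molecules bind this lipid on the one side and a receptor of the phagocyte on the other. Gas6 and Pros1 bind it through a domain rich in gamma-carboxyglutamate and activate the TAM receptors (Tyro3, Axl, Mertk), while Mfge8 binds it and carries an arginine-glycine-aspartate motif for alpha-v integrins. C1q itself coats dying cells and promotes their uptake, and macrophages cultured with C1q have been described to raise Mertk and Gas6. In the lung, alveolar macrophages keep the airspace clear of dying cells, and Cd36 is also abundant on capillary endothelium.

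Libraries held 2227619 to 3650793 counts, so that 3 counts correspond to 0.830 to 1.35 CPM, the unit of level used here (counts scaled by TMM library sizes). Markers of epithelium, endothelium, fibroblasts and immune cells were all detected. The surfactant gene Sftpc stood at 21460 to 24420 CPM in C1q and at 15950 to 32860 CPM in Saline, and the endothelial gene Pecam1 at 396 to 499.5 CPM in C1q and at 482 to 544 CPM in Saline. Across 19 marker lists, 0 listed markers were at 0 counts in all libraries.

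None of the 8 genes passed the test of a difference between C1q and Saline lungs, edgeR's quasi-likelihood test with Benjamini-Hochberg adjustment over all genes. Of the 8, 0 passed an adjusted p of 0.05, 0 had an unadjusted p under 0.05, and 0 were called by DESeq2. Over all genes tested, 0.0297% passed the adjusted threshold, 8.16% had an unadjusted p under 0.05, and DESeq2 called 0.200% of its 18028. Adjusted p-values of the 8 genes lay between 0.637 and 0.926 in edgeR. The few genes called over the whole table, 4 in number, became 0 when Saline replicate 1 was left out and 10 when Saline replicate 3 was. They became 1 when C1q replicate 1 was left out and 2 when C1q replicate 2 was, whereas the count among the 8 was 0 in each of these fits.

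The fold changes were small and of mixed sign. On the log2 scale (C1q over Saline) they ran from -0.16 for Cd36 to 0.51 for Msr1 with a median of 0.17, against a median of -0.01 over all genes tested. They were positive for 5 of the 8 genes and negative for 3, where 48.2% of all genes were positive. For 6 of the 8 the whole 95% interval of the fold change lay within 1 log2 unit of 0, the exceptions being the thinly counted Tyro3 and Msr1, and 72.6% of all genes met the same condition. Because these are mixed cells, fewer cells of a type and less RNA per cell cannot be told apart in any of these values.

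**Figure D1:**
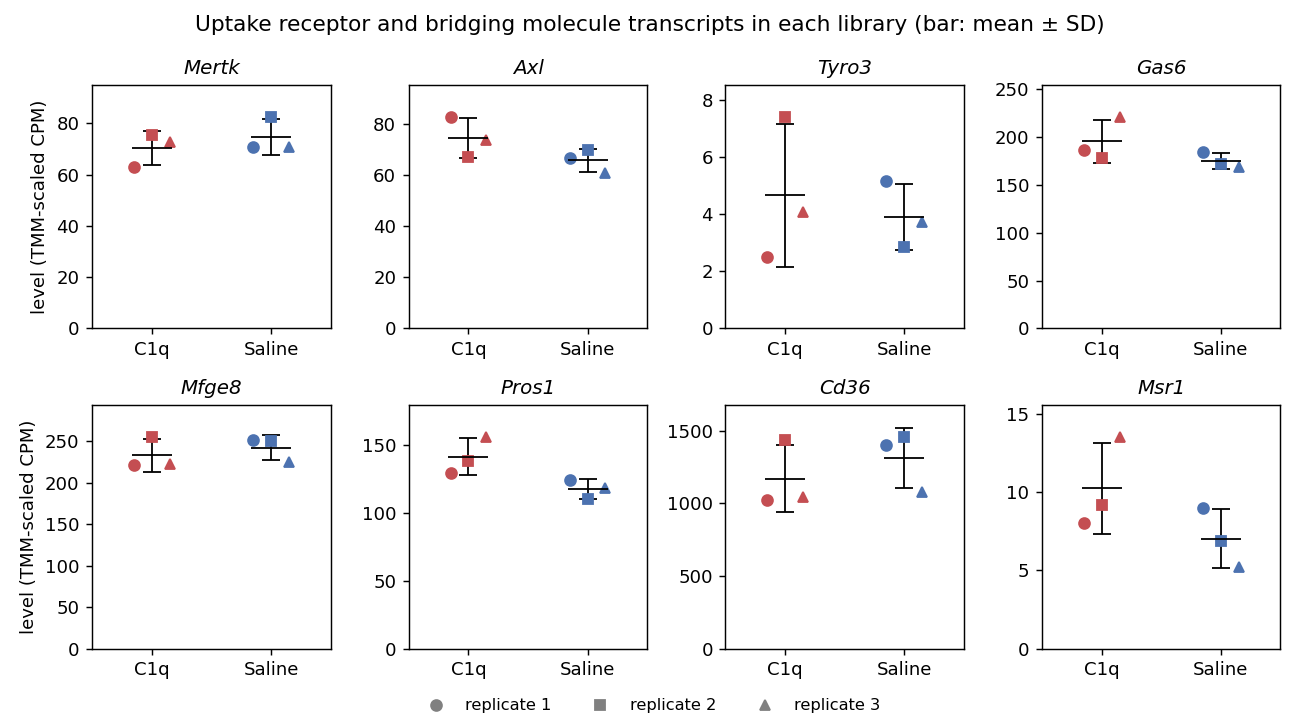
Level of each of the 8 genes in every library, in TMM-scaled CPM on axes that start at 0, with C1q left of Saline. Points are libraries, symbols number the replicates and pair nothing, and bars are mean ± SD (n = 3 each); the groups overlap in every panel except Pros1, where the lowest C1q library (128.9) is above the highest Saline library (124.1).

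Mertk, the TAM receptor that macrophages use for the uptake of dying cells, had 62.8, 75.5 and 72.7 CPM in C1q replicates 1 to 3, against 70.7, 82.6 and 70.6 CPM in Saline replicates 1 to 3. The groups overlapped, with the highest value in a Saline library and the lowest in a C1q library. Mertk averaged 70.3 ± 6.67 CPM in C1q and 74.6 ± 6.88 CPM in Saline (SD, n = 3 each), a log2 fold change of -0.09 ± 0.15 (SE) with a 95% interval of -0.42 to 0.245 (edgeR adjusted p = 0.887). A rise of Mertk transcript beyond 1.19-fold, or a fall to below 0.748-fold, lay outside this interval. These bounds are for the mixture of lung cells, and a change in macrophages alone was not measured.

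Axl, the TAM receptor that is induced by inflammatory signals and is carried by alveolar macrophages and fibroblasts, had 82.7, 67.0 and 73.6 CPM in C1q, against 66.5, 69.6 and 60.9 CPM in Saline. C1q replicates 1 and 3 were above every Saline library and C1q replicate 2 was not. The means were 74.4 ± 7.87 CPM in C1q and 65.7 ± 4.43 CPM in Saline (SD, n = 3 each), a log2 fold change of 0.18 ± 0.15 (95% interval -0.147 to 0.512, edgeR adjusted p = 0.739).

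Tyro3, the TAM receptor best known from the nervous system, was close to the limit of these libraries. It had 9, 21 and 9 counts in C1q, against 16, 7 and 10 counts in Saline, or 2.49, 7.41 and 4.06 CPM in C1q and 5.14, 2.83 and 3.74 CPM in Saline. The highest value was C1q replicate 2 and the lowest C1q replicate 1, so the C1q group spanned all of the Saline group. Its log2 fold change of 0.22 ± 0.48 had a 95% interval of -0.847 to 1.28 (edgeR adjusted p = 0.917), and it was -0.30 without C1q replicate 2. A 2-fold rise lay inside this interval at this depth.

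Of the TAM ligands, Pros1 had the smallest p-value of the 8 genes, without passing. Pros1 encodes protein S, an anticoagulant cofactor that also activates Mertk and Tyro3. It had 128.9, 138.3 and 155.7 CPM in C1q, against 124.1, 109.7 and 118.4 CPM in Saline. Every C1q library was above every Saline library. Among all genes tested 8.12% were separated in this way and 5.96% in the opposite way, and of the 8 genes 1 and 0 were. Pros1 averaged 141 ± 13.6 CPM in C1q and 117 ± 7.24 CPM in Saline (SD, n = 3 each), a log2 fold change of 0.26 ± 0.15 with a 95% interval of -0.059 to 0.582 (edgeR adjusted p = 0.637).

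Gas6, a ligand of all TAM receptors and the one that activates Axl, had 187, 178.5 and 221 CPM in C1q, against 184, 172 and 168 CPM in Saline. C1q replicate 3 stood above the rest, and C1q replicate 2 fell inside the Saline range. The means were 195 ± 22.7 CPM in C1q and 174.5 ± 8.29 CPM in Saline (SD, n = 3 each), a log2 fold change of 0.16 ± 0.15 (95% interval -0.164 to 0.488, edgeR adjusted p = 0.762). A rise of Gas6 beyond 1.40-fold in the mixed cells lay outside the interval. A change in macrophages alone was not measured.

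These libraries read transcript starts, and the windows around the annotated starts of both ligand genes are shown because Pros1 was the only one of the 8 without overlap between groups and Gas6 is its closest relative. Each runs 5′ to 3′ on the gene's strand from 250 bases before to 50 after the start (RefSeq, GRCm38.p6), with each GC box, the motif GGGCGG searched on both strands and counted with overlaps, in capitals. The Pros1 window is chr16:62854057-62854356 on the plus strand and the Gas6 window is chr8:13494486-13494785 on the minus strand.
Pros1: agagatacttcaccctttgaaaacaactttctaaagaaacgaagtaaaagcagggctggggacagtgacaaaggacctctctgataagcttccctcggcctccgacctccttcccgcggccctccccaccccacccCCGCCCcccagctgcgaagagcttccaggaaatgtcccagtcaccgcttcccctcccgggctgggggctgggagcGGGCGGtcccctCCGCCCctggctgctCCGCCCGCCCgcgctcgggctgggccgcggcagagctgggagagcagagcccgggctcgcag
Gas6: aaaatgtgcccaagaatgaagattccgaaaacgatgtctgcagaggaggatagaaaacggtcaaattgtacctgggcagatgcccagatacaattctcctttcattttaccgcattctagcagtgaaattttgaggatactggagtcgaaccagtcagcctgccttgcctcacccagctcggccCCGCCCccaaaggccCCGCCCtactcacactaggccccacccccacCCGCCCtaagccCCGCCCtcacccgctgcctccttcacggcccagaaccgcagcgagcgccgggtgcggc

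The Pros1 window held 5 GC boxes and was 66.7% G or C, and the Gas6 window held 4 and was 58.3% G or C. A RefSeq window was found for 7 of the 8 genes, Msr1 being the one without. All 7 held at least 1 GC box, which 35.7% of all 32851 windows did. Those windows were not matched to the 7 genes in level or gene type, so this is no trait of the set. For Cd36 and Tyro3 the window lay inside the locus, not at its outer end. The counts are per gene and tie no read to a window. The TATA box (TATAAA) was in 0 of the 7 and in 13.6% of all windows. The half-site AGGTCA repeated directly with a spacer of 4 bases, a form bound by liver X receptors, and with a spacer of 1 base, a form bound by PPAR, were in 0 of the 7 windows and in 0.0152% and 0.0396% of all windows, each searched on both strands. A match is a description of these letters and no site of binding.

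Mfge8, which links phosphatidylserine to integrins, had 221, 255 and 222.5 CPM in C1q, against 251, 250.6 and 226 CPM in Saline. Its values interleaved, with the highest and the lowest library both in C1q. The means were 233 ± 19.4 CPM in C1q and 242.5 ± 14.7 CPM in Saline (SD, n = 3 each), a log2 fold change of -0.06 ± 0.14 (95% interval -0.376 to 0.259, edgeR adjusted p = 0.926). This was the value closest to 0 among the 8 genes.

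Cd36, a class B scavenger receptor for oxidised lipids and thrombospondin, had 1025, 1440 and 1048 CPM in C1q, against 1400, 1459 and 1076 CPM in Saline. Both groups held high and low libraries: C1q replicate 2 was near Saline replicates 1 and 2, and Saline replicate 3 was near C1q replicates 1 and 3. The means were 1171 ± 233 CPM in C1q and 1312 ± 206 CPM in Saline (SD, n = 3 each), a log2 fold change of -0.16 ± 0.19 (95% interval -0.586 to 0.258, edgeR adjusted p = 0.819).

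Msr1, the class A scavenger receptor of macrophages, was counted thinly. It had 29, 26 and 30 counts in C1q, against 28, 17 and 14 counts in Saline, or 8.02, 9.17 and 13.5 CPM in C1q and 9.0, 6.88 and 5.23 CPM in Saline. Saline replicate 1 fell inside the C1q range, while C1q replicate 3 was above every other library. Its log2 fold change of 0.51 ± 0.34 was the largest of the 8 and had the interval from -0.236 to 1.25 (edgeR adjusted p = 0.683).

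**Figure D2:**
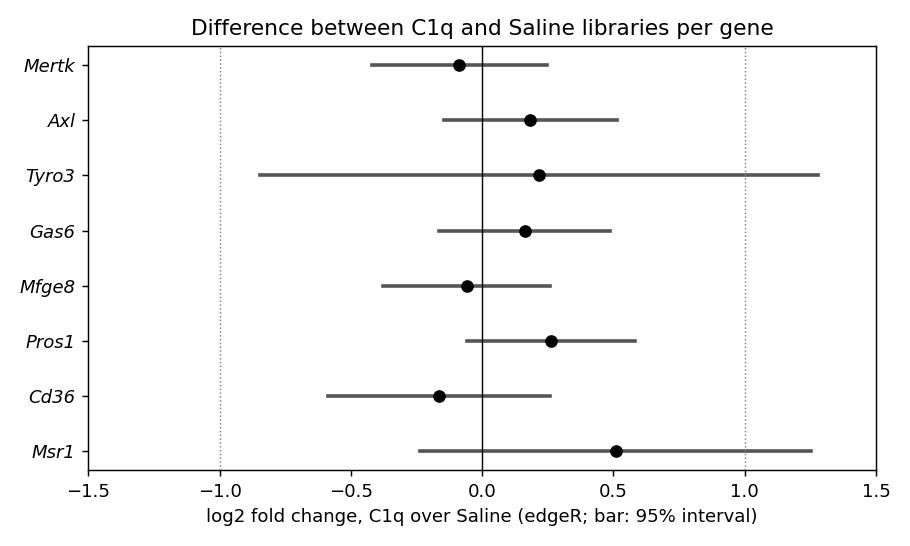
Log2 fold change of each of the 8 genes, C1q over Saline, from edgeR, with bars for the 95% interval and dotted lines at 1 log2 unit either side of 0. All 8 intervals include 0, and those of Tyro3 (-0.847 to 1.28) and Msr1 (-0.236 to 1.25) alone reach past 1.

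Each gene lies at 1 protein-coding locus of GRCm38: Mertk on chromosome 2 from 128698956 to 128802894, Axl on chromosome 7 from 25757273 to 25788705, Tyro3 on chromosome 2 from 119797733 to 119818104 and Gas6 on chromosome 8 from 13465374 to 13494490. Pros1 is on chromosome 16 from 62854307 to 62929346, Mfge8 on chromosome 7 from 79133768 to 79149060, Cd36 on chromosome 5 from 17781690 to 17888801 and Msr1 on chromosome 8 from 39581685 to 39642673. Gas6 overlaps Tmem255b on the opposite strand, which had 33 counts over all libraries, and Mertk overlaps the antisense gene Gm14011 and a small nucleolar RNA gene, neither of which has a row of its own. The sources used here do not say how strand was handled in counting.

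Ratios of counts within a library, which need no scaling between libraries, described the balance between receptors and between ligands. In all, 13 ratios were compared by an exact two-sided permutation test, which with 3 against 3 cannot give a p under 0.1, and the adjusted p over the 13 was at least 0.52. The log2 ratio of Mertk to Axl was -0.397, 0.171 and -0.018 in C1q, against 0.088, 0.246 and 0.213 in Saline. C1q replicate 1 had the lowest value and C1q replicate 2 fell inside the Saline range, and the difference of the means was -0.263 (exact p = 0.2). The log2 ratio of Gas6 to Pros1 averaged 0.469 ± 0.089 in C1q and 0.572 ± 0.070 in Saline (SD, n = 3 each, exact p = 0.3). That of Mfge8 to Gas6 averaged 0.256 ± 0.254 in C1q and 0.473 ± 0.064 in Saline (exact p = 0.3). The log2 ratio of Cd36 to Msr1 averaged 6.83 ± 0.524 in C1q and 7.53 ± 0.235 in Saline (exact p = 0.2), with the groups overlapping.

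All of the 8 genes but Tyro3 were also set against the summed counts of markers of cells that are known to make them. The 13 pan-endothelial markers summed to 3848, 4538 and 3691 CPM in C1q, against 4846, 4559 and 4255 CPM in Saline. Of the 13, 1 had a positive fold change, against 48.2% of all genes tested. The log2 ratio of Cd36 to this sum was -1.91, -1.66 and -1.82 in C1q, against -1.79, -1.64 and -1.98 in Saline, a difference of 0.012 (exact p = 1.0). Cd36 and the endothelial sum were thus both high in C1q replicate 2 among the C1q libraries and both low in Saline replicate 3 among the Saline libraries. The difference in this ratio turned to -0.076 without Saline replicate 3 and to -0.057 without C1q replicate 2.

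The ratio of Pros1 to the endothelial sum was -4.90, -5.04 and -4.57 on the log2 scale in C1q, against -5.29, -5.38 and -5.17 in Saline. Every C1q library was above every Saline library, a difference of 0.442 with the smallest p the design allows (exact p = 0.1, adjusted p = 0.52 over the 13 ratios). This ratio combines the higher Pros1 values with lower endothelial sums, and the part of a change in cell mixture in it was not tested. For Gas6 the same ratio averaged -4.36 ± 0.304 in C1q and -4.70 ± 0.037 in Saline (SD, n = 3 each, exact p = 0.2). Of the 13 fibroblast markers, 11 had a positive fold change and 7 an unadjusted p under 0.05. Over all genes tested the shares were 48.2% and 8.16%. The collagen gene Col1a2 had 470, 363 and 475 CPM in C1q, against 244, 215 and 263 CPM in Saline, a log2 fold change of 0.86 ± 0.16 (edgeR adjusted p = 0.231, DESeq2 adjusted p = 0.000819), with no overlap between groups. Pdgfra, the other defining marker of the list, was at 0.08 ± 0.15 (edgeR adjusted p = 0.904), with overlap. The sum of the list overlapped between groups, at 5909 to 6984 CPM in C1q and 5112 to 7106 CPM in Saline. Its mean was 6624 CPM in C1q and 6302 CPM in Saline. Col1a2 averaged 436 and 241 CPM and Pdgfra 269 and 255 CPM, so the sum rests mostly on other genes of the list. Against this sum, the difference for Gas6 was 0.076 (-0.029 without Saline replicate 2 and -0.097 without C1q replicate 3), that for Mfge8 -0.141 and that for Axl 0.095, with exact p from 0.5 to 0.7.

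**Figure D3:**
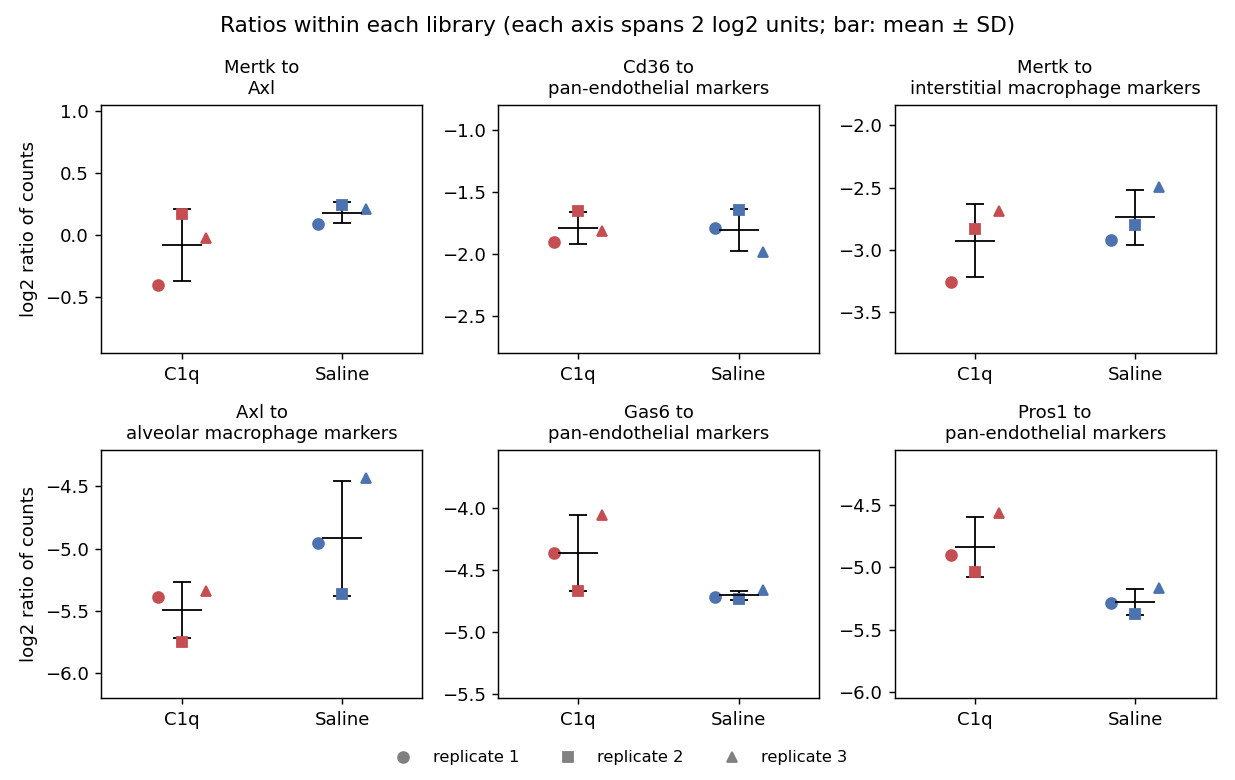
Log2 ratios of counts within each library for 6 of the 13 ratios, each axis spanning 2 log2 units, with C1q left of Saline, points for libraries and bars for mean ± SD (n = 3 each). The groups overlap for all shown except Pros1 to the pan-endothelial sum, with -5.04 to -4.57 in C1q and -5.38 to -5.17 in Saline.

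Macrophage markers bear on Mertk, Axl and Msr1. The 13 alveolar macrophage markers summed to 2989 to 3616 CPM in C1q and to 1322 to 2877 CPM in Saline, without overlap. Of the 13, 9 had a positive fold change, against 48.2% of all genes tested. Most of this sum was the chitinase-like gene Chil3, which took 74.0% to 77.5% of it in C1q and 56.7% to 70.6% in Saline. Without Chil3 the sum was 672 to 904 CPM in C1q and 573 to 847 CPM in Saline, with overlap. A large share of what remained was Car4, which is also on the list of aerocyte endothelial markers. Car4 had 294, 260 and 178 CPM in C1q, against 245, 257 and 176 CPM in Saline. The defining markers Marco and Siglecf stood at 12.2 to 28.6 CPM and 19.0 to 25.7 CPM in C1q, against 19.8 to 26.7 CPM and 17.9 to 26.3 CPM in Saline. The log2 ratio of Axl to the full sum differed by -0.576 between C1q and Saline (exact p = 0.2) and that of Msr1 by -0.226 (exact p = 0.8). Without Chil3 in the sum, a choice made after seeing the data, these differences were 0.011 for Axl and 0.36 for Msr1. The interstitial macrophage markers summed to 470 to 602 CPM in C1q and to 400 to 577 CPM in Saline, and the log2 ratio of Mertk to them differed by -0.187 (exact p = 0.5). The sum averaged 537 CPM in C1q and 504.5 CPM in Saline. Its defining markers C1qa and C1qc averaged 46.47 and 25.7 CPM in C1q, against 22.35 and 14.3 CPM in Saline. The sum thus rests mostly on other genes of the list, of which Mrc1 is also on the alveolar macrophage list.

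The surrounding pathway was described through 11 lists of genes. Outside the 8 genes they hold 155 tested genes, of which 0 passed the edgeR test over all genes, 25 had an unadjusted p under 0.05 with a higher mean in C1q and 0 with a lower one. Over all genes tested, 4.22% had such a p with a higher mean in C1q and 3.94% with a lower one. A positive fold change was seen in 48.2% of them. These shares are the background for the counts of each list below. The lists were chosen with earlier results of these data known, so the counts are no independent test of the pathway. The median log2 fold change of the 155 was 0.11, against -0.01 over all genes tested. DESeq2 called 3 of the listed genes and edgeR with no filter on low counts called 8, all of them higher in C1q. Over all genes, DESeq2 called 0.200%, nearly all of them higher (0.194%), while edgeR with no filter called 0.588% higher and 0.800% lower in C1q.

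**Figure D4:**
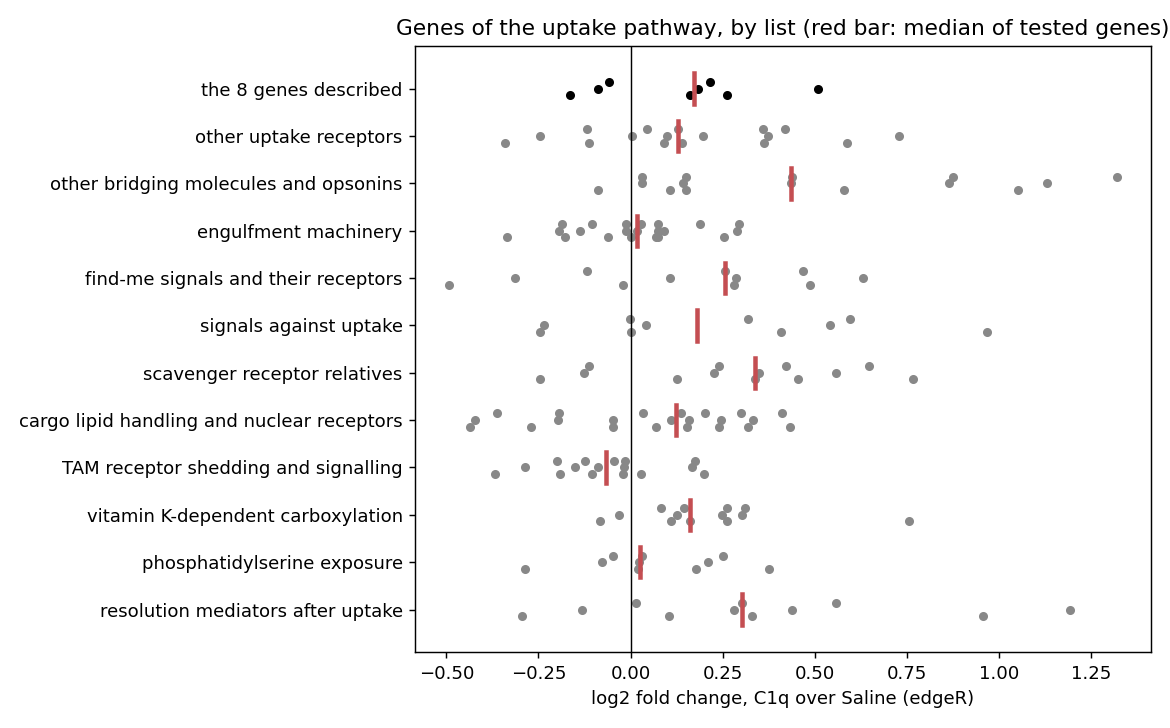
Log2 fold change, C1q over Saline, from edgeR for the 8 genes (black) and the tested genes of 11 lists of the uptake pathway (grey), with a red bar at each median. The median is 0.17 for the 8 genes, 0.43 for other bridging molecules and opsonins and -0.07 for TAM receptor shedding and signalling.

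Other bridging molecules and opsonins had the highest median of the 11 lists in this fit, at 0.43. The rank rests on the filter and on 1 library: the median was 0.18 with no filter on low counts, 0.17 in DESeq2 and 0.28 without C1q replicate 1, below the mediators released after uptake at 0.35, 0.33 and 0.29 in the same fits. Of 15 tested, 14 had a positive fold change and 8 had an unadjusted p under 0.05 in that direction. Over all genes tested the shares were 48.2% and 4.22%. Of the 15, 0 passed over all genes in edgeR. The C1q chain gene C1qa stood at 52.3, 45.2 and 42.0 CPM in C1q, against 28.0, 22.3 and 16.8 CPM in Saline, with a log2 fold change of 1.05 ± 0.21 (edgeR adjusted p = 0.231, DESeq2 adjusted p = 0.0488). Clusterin (Clu), a secreted chaperone that binds cell debris, had 358, 172.5 and 289 CPM in C1q, against 133, 133 and 108 CPM in Saline, a log2 fold change of 1.13 ± 0.24 (edgeR adjusted p = 0.277, DESeq2 adjusted p = 0.00644). All C1q libraries were above all Saline libraries for both genes. The 3 C1q chain genes are also markers of interstitial macrophages. Of that list, 7 of 11 tested genes had a positive fold change and 4 an unadjusted p under 0.05. Over all genes tested the shares were 48.2% and 8.16%. The 3 chain genes were themselves in both counts, so these counts are no separate measure of macrophage content. Cx3cr1 and Stab1, which are among the negative genes of the same list, were at -0.49 ± 0.27 and -0.11 ± 0.19. Stab1 turned to 0.09 without Saline replicate 3, and the pair does not stand for the list. C1qc, with C1qa the defining marker of that list, had 33.2, 23.6 and 20.3 CPM in C1q, against 13.5, 17.4 and 11.95 CPM in Saline, again without overlap. The part of macrophage content in these values was not tested. The lowest fold change of the list was that of Edil3, a relative of Mfge8 that also binds phosphatidylserine and integrins, at -0.09 ± 0.18.

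Other uptake receptors had 13 of 17 tested genes with a positive fold change, a median of 0.13, 3 with an unadjusted p under 0.05 and 0 that passed in edgeR. Cd14, a lipopolysaccharide co-receptor that also tethers dying cells, had 290, 233.5 and 246 CPM in C1q, against 159, 142 and 164 CPM in Saline. Its log2 fold change was 0.73 ± 0.15 (edgeR adjusted p = 0.277, DESeq2 adjusted p = 0.0125), with no overlap between groups. Scarf2 was at 0.37 ± 0.15, Cd93 at -0.34 ± 0.17 and Scarf1 at -0.25 ± 0.23. The phosphatidylserine receptor genes Timd4, Havcr1, Stab2 and Adgrb1 and the C1q receptor gene Megf10 were not among the genes tested. The Mfge8 receptor subunits Itgav, Itgb3 and Itgb5, picked for their role with their values already seen, were at 0.14 ± 0.21, 0.10 ± 0.22 and 0.13 ± 0.16.

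Scavenger receptor relatives had 10 of 13 tested genes with a positive fold change and a median of 0.34. Of these 3 had an unadjusted p under 0.05 and 0 passed. Scara5, a ferritin receptor of the class A family, was at 0.77 ± 0.26 and the oxidised lipoprotein receptor Olr1 at 0.45 ± 0.18. The 3 with a negative value were Scarf1, given above, the macrophage receptor Marco at -0.13 ± 0.28 (0.13 without C1q replicate 3) and Stab1 at -0.11 ± 0.19 (0.09 without Saline replicate 3).

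The engulfment machinery, which couples receptors to the actin skeleton, had a median of 0.02 (-0.0227 with library size only and down to -0.0333 with 1 library left out, Saline replicate 2), with 12 of 21 tested genes positive, 0 of 21 at an unadjusted p under 0.05 in edgeR and 0 called by DESeq2. The adaptors Elmo2 and Elmo1 stood on opposite sides, at 0.29 ± 0.15 with all C1q libraries above Saline and at -0.34 ± 0.17 with all C1q libraries below Saline (edgeR adjusted p = 0.616 for both). Rac2, a GTPase of blood cells, was at 0.29 ± 0.19 and the exchange factor Dock1 at -0.18 ± 0.18 (0.0045 without Saline replicate 3).

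TAM receptor shedding and signalling had a negative median, -0.07, with 4 positive and 12 negative fold changes, and 0 of 16 tested genes had an unadjusted p under 0.05. Of the negative ones Cblb, a ubiquitin ligase that restrains receptor kinases, was at -0.29 ± 0.19. Of the positive ones Adam17, the protease that cleaves Mertk from the surface, was at 0.17 ± 0.19 and the phosphatase Ptpn11 at 0.17 ± 0.14. Vitamin K-dependent carboxylation, the modification that lets Gas6 and Pros1 bind phosphatidylserine, had a median of 0.16 over 13 tested genes, 11 of them positive and 2 of them Gas6 and Pros1. In that list coagulation factor gene F10, itself a substrate, was at 0.76 ± 0.24 (edgeR adjusted p = 0.522), Calu at 0.30 ± 0.15, Prrg1 at -0.08 ± 0.18 (0.018 without C1q replicate 1) and Prrg4 at -0.03 ± 0.30. The carboxylase Ggcx and the reductase Vkorc1, picked for their role with their values already seen, were at 0.08 ± 0.18 and 0.15 ± 0.17.

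Find-me signals and their receptors had a median of 0.26 over 11 tested genes, 7 of them positive (0.11 without Saline replicate 1). Of the 11, 1, the sphingosine kinase Sphk1, had an unadjusted p under 0.05, at 0.47 ± 0.21. Panx1, a channel that releases nucleotides from dying cells, was at 0.49 ± 0.28, the sphingosine-1-phosphate receptor S1pr1 at -0.31 ± 0.17 and the fractalkine receptor Cx3cr1 at -0.49 ± 0.27. Signals against uptake had a median of 0.18 over 10 tested genes, 7 of them positive and 2 with an unadjusted p under 0.05. The inhibitory receptor Lilrb4a had 118, 95.2 and 104 CPM in C1q, against 69.1, 72.9 and 68.0 CPM in Saline, with a log2 fold change of 0.60 ± 0.15 (edgeR adjusted p = 0.383). Plaur was at 0.41 ± 0.15, Pecam1 at -0.24 ± 0.15 and Siglecg at -0.25 ± 0.34. Pecam1 is also on the list of pan-endothelial markers, where 1 of 13 had a positive fold change. The part of cell mixture in its value was not tested.

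Genes for phosphatidylserine exposure had a median of 0.03 (-0.0167 with library size only and -0.0184 without Saline replicate 2) with 7 of 10 tested genes positive and 0 at an unadjusted p under 0.05, with the flippase Atp11a at 0.25 ± 0.15 and the scramblase Xkr8 at -0.29 ± 0.35. Cargo lipid handling had a median of 0.12 over 22 tested genes, 14 of them positive and 3 with an unadjusted p under 0.05. The lipid droplet gene Plin2 was at 0.41 ± 0.14, the mitochondrial carrier Ucp2 at 0.43 ± 0.18, the fatty acid binding protein Fabp4 at -0.42 ± 0.29 and Cpt1a at -0.19 ± 0.13. Mediators released after uptake had a median of 0.30 over 11 tested genes, 9 of them positive and 4 with an unadjusted p under 0.05. In that list the growth factor Igf1 had 60.8, 39.9 and 59.1 CPM in C1q, against 27.0, 23.5 and 31.8 CPM in Saline, a log2 fold change of 0.96 ± 0.20 (edgeR adjusted p = 0.277, DESeq2 adjusted p = 0.0864). Over the alternative scalings, filters and tests (edgeR, DESeq2 or limma), its adjusted p ran from 0.000461, in edgeR with no filter on low counts, to 0.446. With 1 library left out, its edgeR adjusted p was 0.128 to 0.854. Il1rn was at 0.56 ± 0.16, Vegfa at -0.30 ± 0.17 and Nr4a1 at -0.13 ± 0.15.

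Over the 6 libraries, the genes with the most similar mean-centred log2 CPM were Esam and Rab33b for Mfge8, Cav2 and Mettl24 for Cd36, Wls and Vcp for Gas6, and Usp8 and Pgm5 for Pros1, out of 7730 genes at a mean of at least 20 CPM. For Mertk they were Rgl2 and Ddx39b, for Axl Tex261 and Trap1, and for Msr1 Slco4c1 and Emilin2. The root mean square difference from the nearest gene was between 0.0208 for Gas6 with Wls and 0.132 for Msr1 with Slco4c1 on the log2 scale. With 6 libraries and so many candidates, close neighbours are found for any gene, and the names are given as a description.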

How the data were processed

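The authors deposited 1 table of raw counts, not normalized, with a row for each gene symbol. Per the submitters' processing notes, Bowtie2 2.4.2 and cutadapt 2.1.0 were used, with the build GRCm38. The sources used here do not name the counting tool or the annotation and do not describe strand handling or molecular identifiers, so intervals cover no amplification error beyond what the replicates show. Groups came from the treatment label alone, since the protocol text is the same in both groups, and replicates were numbered in order of deposition, which pairs nothing. Chi-square per degree of freedom was 5.04 to 16.4 between libraries, above counting noise, and none was merged. The largest value was within a group, between Saline replicates 2 and 3. Between Saline replicate 3 and C1q replicate 3 it was 5.67.

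TMM factors were computed on genes kept by filterByExpr, and the test was that of edgeR 4.0.16 (its quasi-likelihood F test, with treatment alone in the model). Two-sided p-values were adjusted over all 13473 genes with a threshold of 0.05. Standard errors come from the fold change and the F statistic, and 95% intervals from the t quantile of the fit. The common biological coefficient of variation was 19.5%. Ratios used counts plus 0.5. Alternatives were DESeq2 1.42.0, limma 3.58.1 (voom), other scalings and filters, and leaving out each replicate.

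The 8 genes and the lists were chosen with earlier results of these data known. In each list the genes named were the pair with the smallest p in each direction, a few of which are not reported here, and nearest profiles were taken by root mean square difference. Positions come from GENCODE M21.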

Additional observations from a re-analysis of the deposited data

How the results depend on the processing

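For the 8 genes, 103 log2 fold changes were obtained under alternatives to the scaling, filter, test or set of libraries. Of these 102 kept their sign and 0 passed an adjusted p of 0.05 (smallest 0.637, by limma, edgeR or DESeq2). The exception was Tyro3, which ran from -0.30 to 0.56 when 1 library was left out and had no value under the stricter filter. All these fits reuse the same 6 libraries, so a kept sign is no independent support. With 1 library left out, Mertk came as near to 0 as -0.0039 and Mfge8 as -0.0206. The number of genes called over the whole table was 373 with no filter on low counts, 36 with DESeq2 and 0 to 10 with 1 library left out.

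Other values also changed sign. With 1 library left out, the log2 fold change ran from -0.28 to 0.0045 for Dock1, from -0.25 to 0.0857 for Stab1, from -0.40 to 0.13 for Marco, from -0.14 to 0.018 for Prrg1 and from -0.10 to 0.0558 for Prrg4 (0.0047 with no filter on low counts). The difference in the log2 ratio ran from -0.076 to 0.093 for Cd36 to endothelial markers and from -0.097 to 0.193 for Gas6 to fibroblast markers. With Chil3 left out of the alveolar macrophage sum, it was 0.011 for Axl and 0.36 for Msr1, with lowest and highest values of -0.799 and -0.335 for Axl and -0.528 and -0.041 for Msr1 when 1 library was left out of the full sum. Chil3 makes up most of that sum. For the other values the cause was not tested. No paired analysis was possible because the numbers of the samples in the labels are not shared between the groups. Depth limits Tyro3 and Msr1 most.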
